A study of Mus musculus with 3 samples.

Results

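Urothelial cells, the lining cells of the renal pelvis and ureter, made up 216 of 48404 kidney cells from 3 mice after folic acid (FA) treatment. The droplet assay tags RNA near its 3′ end with a cell barcode and a molecule tag, the unique molecular identifier (UMI), so that counts are of molecules. A barcode was taken as urothelial when at least 2 of the 5 genes Upk1a, Upk1b, Upk2, Upk3a and Psca had a UMI. It also had at most 1 UMI of the mesothelial genes Wt1, Msln and Upk3b together, at most 2 UMIs of the tubule genes Lrp2, Slc34a1, Slc12a1 and Aqp2, and at most 1 UMI of the leukocyte genes Ptprc and Tyrobp. Only barcodes with at least 200 genes, at most 50% of UMIs from mitochondrial genes and at least as many UMIs as the shallowest barcode of Aoah-/- mouse 3 were kept.

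Urothelium is a layered epithelium that seals the urinary tract against urine. Its basal cells rest on the basement membrane and carry keratin 5 and the transcription factor p63, and its superficial umbrella cells carry keratin 20 and plaques of uroplakins, membrane proteins that stiffen the luminal surface. Intermediate cells lie between these layers, and the epithelium is known to divide rarely unless it is injured.

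Each library came from its own mouse, of which 2 were Aoah-/- (replicates 2 and 3, called mouse 2 and mouse 3) and 1 was WT (replicate 3). All 3 mice were 6 to 8 weeks old by the labels and had FA-induced kidney injury, with kidneys taken on day 14, so no untreated kidney is in the comparison. Aoah encodes acyloxyacyl hydrolase, which removes fatty acids from lipopolysaccharide (LPS). The deletion is in the germline, so every cell type of an Aoah-/- mouse carries it, and the WT mice of the study were littermates on the C57BL/6J background. Whole kidneys were perfused, minced and digested with type IV collagenase and DNase I, and the suspension was strained and freed of erythrocytes. How much of the renal pelvis went into each digest is not given in the sources used here.

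Aoah itself had no UMI in the urothelial cells of any library. Urothelial UMIs totalled 1768217 (Aoah-/- mouse 2), 508196 (Aoah-/- mouse 3) and 413302 (WT), and a count of 0 allows up to 1.70, 5.90 and 7.26 counts per 1000000 UMIs (CPM), taken as 3 counts of the total. Over all kept cells, Aoah stood at 6.78 and 6.19 CPM in the Aoah-/- mice and at 18.3 CPM in the WT mouse. The level was thus lower in both knockout libraries but not 0, and which part of the transcript the allele removes is not given in the sources used here, so UMIs from the 3′ end check the deletion only in part. Triplets of values below always list Aoah-/- mouse 2 first, then Aoah-/- mouse 3, then WT. The median urothelial cell held 14282, 9696 and 11192 UMIs and 3334, 2669 and 2917 genes. These cells were deeper than the kept cells as a whole, whose medians were 5487, 3678 and 6389 UMIs, and their median mitochondrial share was 5.58%, 7.22% and 6.47% against 10.7%, 15.0% and 13.2%. The libraries shared 171 to 176 barcodes per pair, none of them urothelial.

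The uroplakin genes choose the cells, and Upk3b is also where the choice turns out to cost cells, so their upstream sequence is shown. The RefSeq promoter table held Upk1a, Upk3a and Upk3b. Each line gives the 250 bases before the RefSeq start, 5′ to 3′ on the gene's strand, on GRCm38.p6, for Upk1a at chr7:30612735-30612984 (minus strand), Upk3a at chr15:85016891-85017140 (plus strand) and Upk3b at chr5:136038246-136038495 (plus strand). Capitals mark matches, on either strand, to the motif letters of 4 families of transcription factors with a member among the genes described below. AGATAA was searched for the family of Gata3, AACCNGTT for Grainyhead-like factors, TGTTTNC for forkhead factors and CCNCNCCC for the family of Klf5.
Upk1a: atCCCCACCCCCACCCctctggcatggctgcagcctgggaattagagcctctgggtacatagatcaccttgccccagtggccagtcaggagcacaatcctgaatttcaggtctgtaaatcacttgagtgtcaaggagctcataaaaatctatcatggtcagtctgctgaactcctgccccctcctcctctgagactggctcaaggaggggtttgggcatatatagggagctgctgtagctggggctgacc
Upk3a: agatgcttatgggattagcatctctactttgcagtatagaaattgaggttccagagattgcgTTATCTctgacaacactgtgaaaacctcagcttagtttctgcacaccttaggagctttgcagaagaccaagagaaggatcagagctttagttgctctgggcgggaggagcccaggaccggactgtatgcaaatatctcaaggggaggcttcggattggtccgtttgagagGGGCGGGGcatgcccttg
Upk3b: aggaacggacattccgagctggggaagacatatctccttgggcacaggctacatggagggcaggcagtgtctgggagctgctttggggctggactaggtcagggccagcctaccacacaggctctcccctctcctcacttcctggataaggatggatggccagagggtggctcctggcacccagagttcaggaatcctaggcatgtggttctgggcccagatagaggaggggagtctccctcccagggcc
The letters for the Klf5 family matched in Upk1a, with overlapping matches, and in Upk3a, and they occur in 45.9% of 32851 mouse promoters of this length. The letters for the Gata3 family matched in Upk3a alone among these 3 genes and occur in 9.99% of promoters. The Grainyhead and forkhead letters, found in 1.79% and 17.8% of promoters, matched in none of the 3. A match is a description of the letters and not of binding.

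The urothelial label was looked at in 5 genes that the rule did not use. They were picked after the cells had been seen, so this is a description and not a test of the label. Krt5, Krt15, Ly6d, Fxyd3 and Foxq1 are, in that order, 2 basal keratins, a surface protein of stratified epithelia, a regulator of the sodium pump and a forkhead transcription factor. All 5 had a UMI in 121 of the 216 cells, 4 of them in a further 72 cells, 3 in 10, 2 in 9, 1 in 2 and none in 2 cells. Krt15 was the one most often missing, without a UMI in 32, 22 and 24 cells. The pair with none went against its label by these 5 genes. Other unused markers did have UMIs in this pair, with 2 and 34 of Krt7, 1 and 6 of Krt19 and 2 and 4 of Gata3. Krt7 and Gata3 were also found in principal cells, as given below. The barcode in Aoah-/- mouse 2 held 15684 UMIs, entered by 1 UMI of Upk3a and 2 of Psca, and had 163 UMIs of Spp1. The barcode in WT held 34058 UMIs, entered by 1 UMI each of Upk1a and Psca, and had 646 UMIs of Clu. Both also held the kidney cadherin Cdh16, at 13 and 21 UMIs. The WT barcode gave 8.24% of all WT urothelial UMIs, which bears on the comparison of genotypes below.

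Members were chosen on measured values, and the margins of the rule show how sharp it is. Of the members, 93 had 2 of the 5 rule genes, 52 had 3, 32 had 4 and 39 had all 5. Krt19, the keratin of simple and transitional epithelia, was found in 98.9% of the members with 2 rule genes and in 62.9% of the 294 barcodes with 1 rule gene, which lie just outside. For Krt5 the same shares were 88.2% and 44.6%. Barcodes with 1 rule gene were thus a mixture by these genes. Krt20, the umbrella cell keratin, had a UMI in 11.8%, 19.2%, 31.3% and 41.0% of members with 2, 3, 4 and 5 rule genes, while the median member held 12165, 12590, 12695 and 15477 UMIs in the same order.

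**Figure D1:**
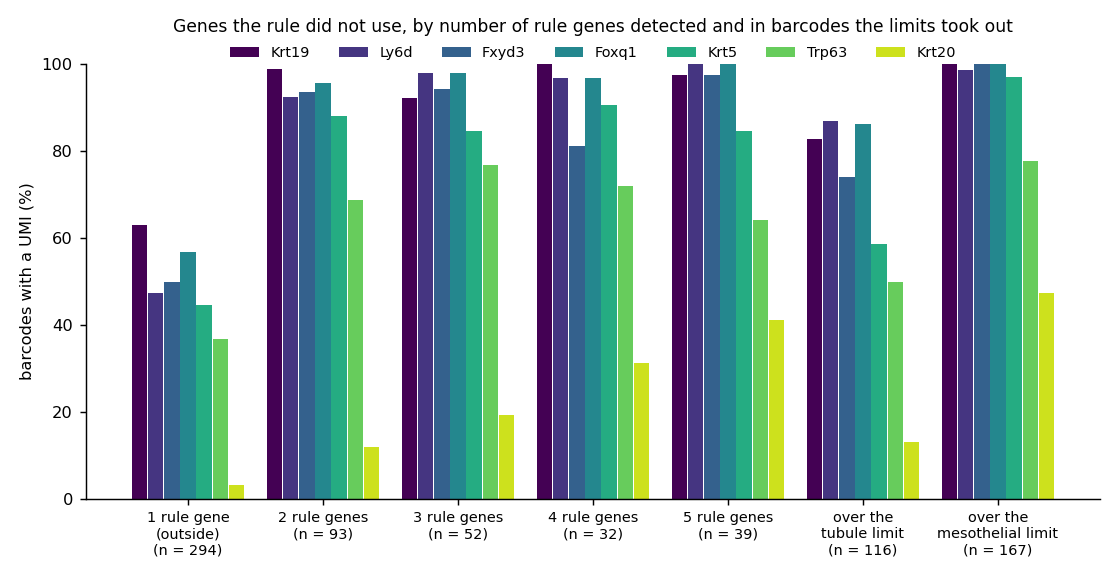
Percentage of barcodes with a UMI (vertical axis) of 7 genes that the rule did not use, over all 3 libraries. Bars are grouped by the number of rule genes detected (1 lies outside the rule) and, at the right, by barcodes that the tubule or mesothelial limit took out. Among barcodes over the mesothelial limit, Krt19 is in all 167 and Krt5 in 97.0%.

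Among the limits on genes of other cell types, the mesothelial limit took out the most urothelial-looking barcodes. Upk3b is a uroplakin as well as a mesothelial marker, and it was counted with Wt1 and Msln. Of the barcodes that met every other criterion, 99, 24 and 44 exceeded this limit, and 156 of these 167 (93.4%) had no UMI of Wt1 or Msln. All 167 had Krt19, 162 had Krt5 and 165 had Ly6d, and their median UMI totals were 19942, 16804 and 16650, above those of the members. Counting Wt1 and Msln alone would give 225, 71 and 78 urothelial cells, 374 in all. The tubule limit took out 116 barcodes. Krt19 was found in 82.8%, Krt5 in 58.6%, Ly6d in 87.1% and Foxq1 in 86.2% of them. Kap, a gene of proximal tubule, stood there at 9977 CPM, against 314 to 487 CPM in members grouped by their number of rule genes. By library, Kap in these barcodes was at 3739, 16769 and 21261 CPM. The levels in remaining cells below include all these barcodes, and also the tubules, vessels and leukocytes of the kidney.

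The 5 genes furthest above remaining cells, by the smallest of the 3 library ratios, were Aldh3a1, Krt15, Sprr1a, Igfbp2 and Fxyd3. Levels were summed over the cells of a library, and 10 CPM was added before ratios were taken. Of 3849 genes with at least 50 CPM in urothelial or remaining cells of a library, 135 (3.51%) were 4-fold or more higher in urothelial cells in all 3 libraries and 344 (8.94%) were 4-fold or more lower. Because these cells were picked by their own RNA, this is a description without a test. The highest-ranked gene by the smallest of the 3 ratios was Aldh3a1, an aldehyde dehydrogenase of barrier epithelia, at 806, 447 and 394 CPM in urothelial cells against 32.3, 4.69 and 5.44 CPM in remaining cells. Krt15 followed, and then Sprr1a, a small proline-rich protein of the cornified envelope, at 2434, 2534 and 2855 CPM against 125, 39.8 and 50.6 CPM. Igfbp2, which binds insulin-like growth factors, stood at 1122, 1047 and 1084 CPM, and Ly6d at 4412, 4409.7 and 4094 CPM. The levels of Sprr1a, Igfbp2 and Ly6d in urothelial cells differed little among the mice, whereas Aldh3a1 was at like levels in Aoah-/- mouse 3 and WT and higher in Aoah-/- mouse 2. In remaining cells, each of the named genes was highest in Aoah-/- mouse 2, the library with the most urothelial cells and the most barcodes taken out by the mesothelial limit.

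**Figure D2:**
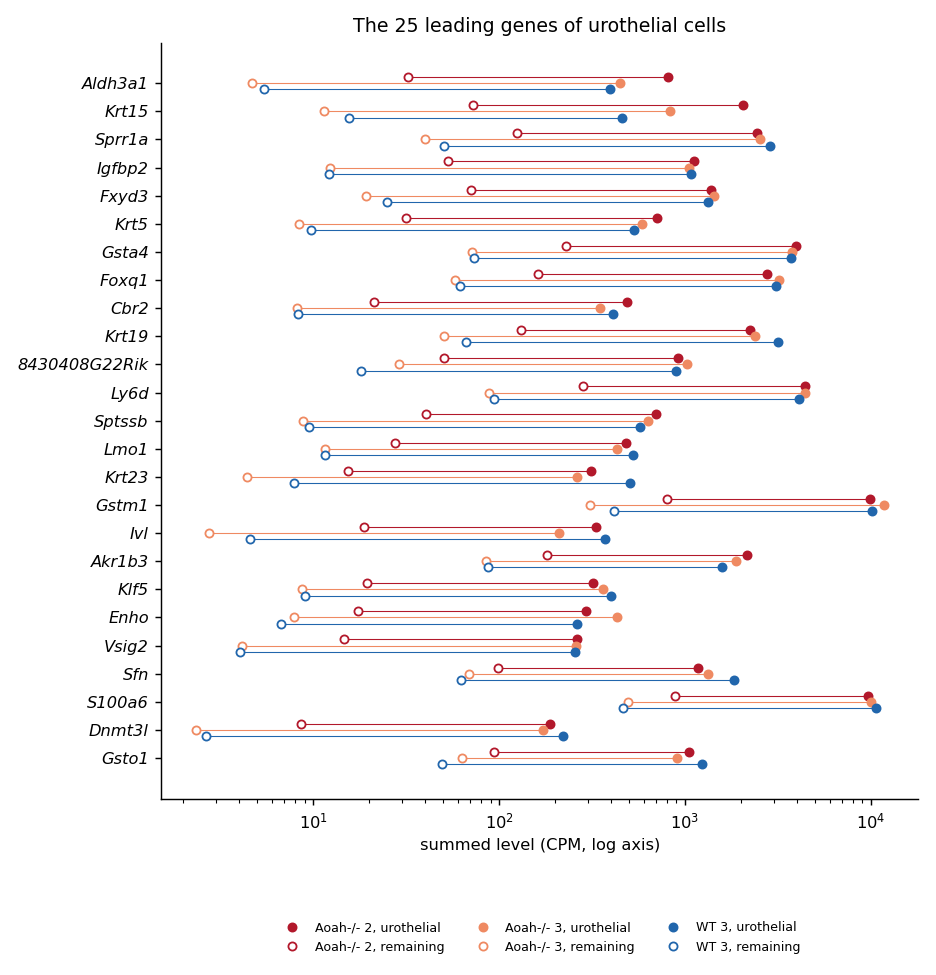
Summed level in CPM (horizontal log axis) of the 25 leading genes that the rule did not use, in urothelial cells (filled points) and remaining cells (open points) of each library. Filled points lie at least 10-fold to the right of open points in every row, from Dnmt3l at 173 to 220 CPM up to Gstm1 at 9948 to 11769 CPM.

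Among the other leading genes were Gsta4, Gstm1 and Gsto1, which conjugate or reduce with glutathione, at 3936, 3784 and 3731 CPM, at 9948, 11769 and 10160 CPM, and at 1054, 905 and 1241 CPM. Gstm1 was also among the 10 most abundant genes of these cells other than mitochondrial and ribosomal protein genes, with Gm42418, Malat1, Tmsb4x, S100a6, Eef1a1, Tpt1, Ly6d, Gsta4 and Actb. Akr1b3, the aldose reductase, stood at 2164, 1871 and 1575 CPM, and the carbonyl reductase Cbr2 at 489.8, 348 and 409 CPM. Ivl, which encodes involucrin of the cornified envelope, was present at 334, 211 and 370 CPM and in 72.3%, 52.1% and 36.8% of cells. Sptssb, a subunit of the enzyme that starts sphingolipid synthesis, Lmo1, a LIM-domain regulator, Enho, Vsig2, Dnmt3l and 8430408G22Rik completed the list with Krt23, Klf5, Sfn and S100a6.

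Keratins and genes of the basal and superficial layers were among those higher in these cells. The sums below do not place single cells in a layer. Of 9 keratins tested, 6 (Krt5, Krt7, Krt15, Krt18, Krt19 and Krt23) passed the 4-fold rule, against 3.51% of all genes tested, the share to hold beside each count of higher genes here. Krt19 stood at 2233, 2367 and 3177 CPM, Krt7, a simple-epithelial keratin, at 1310.4, 1037 and 1132 CPM, and Krt5 at 704, 588 and 535 CPM. Krt8 did not pass, with 806, 905 and 1624 CPM against 232, 219.97 and 193 CPM in remaining cells. Of 10 basal genes tested, 6 passed: Krt5, Krt15, Trp63, Itgb4, Shh and Lamb3. Trp63 encodes p63 and stood at 137, 183 and 128 CPM, and Shh, the hedgehog ligand that basal urothelium secretes, at 102, 100.4 and 104 CPM. Of 11 superficial genes tested, 7 passed, 4 of them genes of the rule and the other 3 Elf3, Pparg and Vsig2. Pparg, a nuclear receptor of urothelial differentiation, stood at 93.3, 102 and 102 CPM and Elf3, an epithelial ETS factor, at 374, 329 and 336 CPM. No list in the set is independent of earlier looks at these data.

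To compare shares of cells at one depth, each cell was thinned to the UMI minimum, and no urothelial cell was lost. Krt5 then had a UMI in 61.5% (95% interval by Clopper-Pearson, 52.6 to 69.9), 47.9% (33.3 to 62.8) and 50% (33.4 to 66.6) of urothelial cells, against 91.5%, 81.3% and 78.9% before thinning. In collecting duct principal cells, which should lack it, Krt5 was at 5.83%, 2.62% and 0.789% after thinning. These were 360, 458 and 380 cells with at least 3 of 7 principal cell genes and median depths of 13066, 7505 and 13143 UMIs. Trp63 was found in 26.2%, 27.1% and 28.9% of thinned urothelial cells and Upk3a in 46.9%, 64.6% and 44.7%. Krt20 was rarer, at 6.15%, 12.5% and 7.89%, and Krt13, a keratin of intermediate bladder cells, had no UMI in any thinned urothelial cell (upper 95% limits 2.80%, 7.40% and 9.25%) and was found in 2.31%, 4.17% and 5.26% of them before thinning. Intervals here cover counting error only, since cells of 1 mouse are not replicates.

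**Figure D3:**
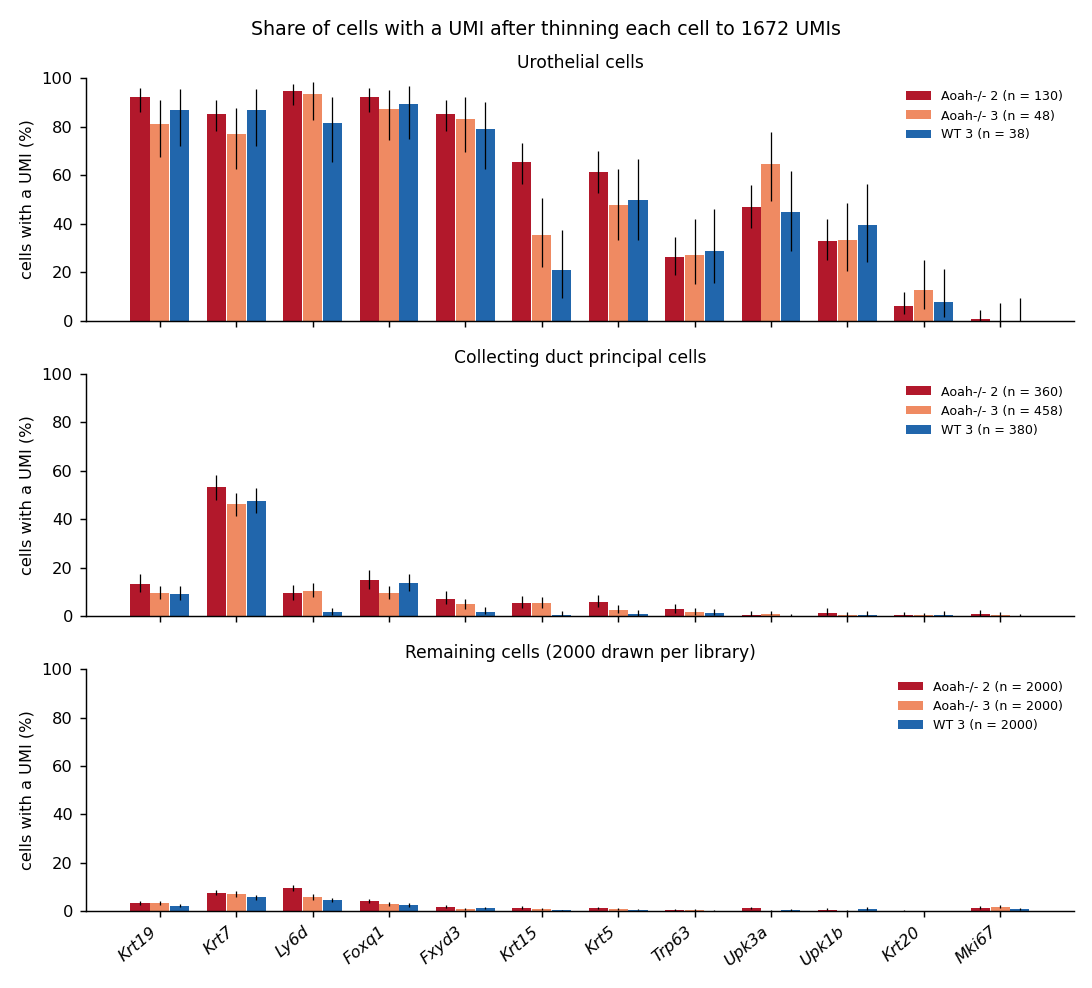
Percentage of cells with a UMI of 12 genes (vertical axes) after thinning each cell to the UMI minimum, by library. Panels show urothelial cells, principal cells and 2000 remaining cells per library, and bars carry Clopper-Pearson 95% intervals that cover counting error only. Krt15 has the largest spread among the 3 mice in urothelial cells, from 65.4% to 21.1%, whereas in principal cells Krt19 is at 9.21% to 13.3% and Krt7 at 46.1% to 53.1%.

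Basal and superficial genes occurred in the same cells. At the deposited depth, Krt5 had a UMI in 188 of the 216 cells. Krt20 had one in 47 cells, and 45 of these also had Krt5. After thinning, 9 of 17 cells with Krt20 had Krt5 (52.9%), near its share of 56.8% in cells without Krt20. Because each cell by the rule carried superficial genes (uroplakins or Psca), a cell of purely basal character would not have been chosen, so this co-detection is partly fixed by the rule. By library, Krt20 cells numbered 21, 17 and 9, with Krt5 in 19, 17 and 9 of them. Doublets were kept, and a doublet of a basal and a superficial cell would look the same, which was not tested.

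Among the genes of the profile were transcription factors known from urothelium. Of 14 tested, 10 passed the 4-fold rule, against 3.51% of all genes tested: Gata3, Foxa1, Foxq1, Pparg, Trp63, Elf3, Klf5, Ehf, Tbx3 and Ovol1. Foxq1 was the most abundant, at 2773, 3186 and 3104 CPM against 162, 58.2 and 61.4 CPM in remaining cells. Gata3, a zinc-finger factor of luminal epithelia, stood at 318, 366 and 266 CPM against 214, 181 and 203 CPM in principal cells, Foxa1, a pioneer factor, at 151, 136 and 196 CPM, and Klf5, a zinc-finger factor of proliferating epithelia, at 319.5, 364 and 402 CPM. Grhl1 and Grhl2, of the Grainyhead-like family, were under 50 CPM in every library and so not tested, with 44.1, 21.6 and 26.6 CPM and 48.1, 47.2 and 31.4 CPM. Summed over the list, the factors reached 5268, 5742 and 5783 CPM in urothelial cells, 1433, 1165 and 1413 CPM in principal cells and 675, 551 and 477 CPM in remaining cells.

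Genes of the surface, junctions and signals were part of the profile as well, and their counts stand beside the 3.51% of all genes tested that were higher. Of 17 surface and urothelium-enriched genes tested, 12 passed, among them Fxyd3 at 1385, 1427 and 1338 CPM and S100a6, a calcium-binding protein, at 9639, 9959 and 10663 CPM. Of 13 junction genes, 4 passed, among them Perp and Dsp, of desmosomes, and Cldn4, a claudin of tight epithelia. Perp stood at 565, 614 and 622 CPM. Of 8 growth factor and receptor genes, Shh, Wnt4, Areg and Notch1 passed, with the EGFR ligand Areg at 293, 329 and 276 CPM and Wnt4 at 243, 157 and 159.7 CPM. The water and glycerol channel Aqp3 was the 1 channel of 4 tested that passed, at 817, 935 and 726 CPM, and principal cells held 529, 446 and 529 CPM of it. Wfdc2, a secreted whey-acidic protein, Reg3g, an antimicrobial lectin, and Ang, a ribonuclease, passed among 14 antimicrobial genes tested. Wfdc2 stood at 3761, 3225 and 2758 CPM, and principal cells held 1520, 1417 and 1590 CPM of it.

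Other programmes were low or not particular to these cells. Of 7 MHC class II genes tested, 6 were 4-fold or more lower in urothelial than in remaining cells, against 8.94% of all genes tested. Cd74 stood at 56.0, 82.7 and 79.8 CPM against 1533, 1863 and 1278 CPM. Remaining cells include leukocytes, whose genes the rule limits in urothelial cells. The class II list summed to 140, 226 and 162 CPM in urothelial cells and to 233, 474 and 118 CPM in principal cells. None of 10 MHC class I and immunoproteasome genes passed either way, and B2m stood at 799, 622 and 929 CPM. Of 17 cell cycle genes, 2 reached the level for testing and neither passed. Mki67, a marker of dividing cells, had a UMI in 0.769%, 0% and 0% of thinned urothelial cells, and the counts of 0 of the last pair have upper 95% limits of 7.40% and 9.25%. The LPS receptor genes were near the limit of detection, with 7, 5 and 1 UMIs of Tlr4 and no UMI of Lbp, whereas the LPS coreceptor Cd14 stood at 43.0, 35.4 and 38.7 CPM against 205, 134 and 76.4 CPM in remaining cells. All 17 immediate early and heat shock genes were tested and none passed, and Jun stood at 2579, 3329 and 3791 CPM.

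Markers of other cell types were low in these cells, which the rule partly fixes, since it limits Lrp2, Slc34a1, Slc12a1, Aqp2, Wt1, Msln, Upk3b, Ptprc and Tyrobp and so removes barcodes that carry such markers. The counts that follow are a description of the chosen cells. All 15 proximal tubule genes were 4-fold or more lower than in remaining cells, against 8.94% of all genes tested, and their summed level was 763, 1088 and 798 CPM against 27002, 32953 and 43781 CPM. Kap was the most abundant of them, at 370.4, 614 and 462 CPM in urothelial cells. All 14 leukocyte genes tested were lower, with a summed level of 123, 134 and 26.6 CPM over the 16 genes of the list. Of 8 mesothelial genes, 6, among them Wt1, had no UMI in the urothelial cells of any library. The summed erythroid genes stood at 46.9, 82.6 and 223 CPM in urothelial cells and at 2583, 3539.9 and 7770.3 CPM in remaining cells, with the same order of libraries in both. The part of free RNA in these levels was not tested.

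Krt15 varied widely among the mice and among their cells. Summed over cells, its level was 2042 CPM (exact Poisson 95% interval, 1976 to 2109), 834 CPM (757 to 918) and 457 CPM (394 to 527). The 3 libraries were thus apart by more than counting error in these cells. By this rule Aoah-/- mouse 3 lay nearer to the WT mouse than to the other Aoah-/- mouse, which did not hold for every definition. The log2 ratio of the mean Aoah-/- level over WT was 1.63, with an SD of 0.91 between the ratios of the Aoah-/- mice. The distance between the last pair depended on the definition of the cells. With the limit on Wt1 and Msln alone, the levels were 1465 CPM (1427 to 1503), 536 CPM (490 to 585) and 548 CPM (506 to 592). The log2 ratio was then 0.86 with an SD of 1.01, and Aoah-/- mouse 3 and WT were not apart. With at least 3 rule genes, the levels were 1757 CPM (1678 to 1838), 799 CPM (699 to 909) and 166 CPM (117 to 228). The log2 ratios of the Aoah-/- mice were then 3.33 and 2.20, both past 2-fold, and Aoah-/- mouse 3 lay nearer by log2 ratio to the other Aoah-/- mouse. The median cell held 1628, 64.7 and 0 CPM. At or above 1000 CPM, a limit chosen after the values were seen, stood 74 of 130, 14 of 48 and 8 of 38 cells (56.9%, 29.2% and 21.1%), and 31, 8 and 2 cells lay near it, between 500 and 2000 CPM. In the same libraries, the median cell held 566, 416 and 428 CPM of Krt5 and 4174, 3757 and 4561 CPM of Ly6d.

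Cells on either side of this limit differed in some other keratins. Krt19 was lower in the cells with more Krt15 in each library, at 1929 against 2728 CPM, 2045 against 2494 CPM and 2015 against 3386 CPM. Krt20 stood there at 16.4 against 37.1 CPM and 27.8 against 102 CPM in the Aoah-/- mice, while in the WT mouse it had no UMI in the 8 cells, which allows up to 47.6 CPM, against 48.5 CPM, so no difference was detectable at this depth. Krt5 had no common direction, at 818 against 518 CPM, 334 against 689 CPM and 651 against 514 CPM. In the WT mouse, 3 of the 8 cells at or above the limit had no Ly6d UMI. These 8 held Spp1 at 6935 CPM and Igfbp2 at 286 CPM, against 1033 and 1228 CPM in the other WT cells. The other WT cells include the barcode of 34058 UMIs described above, which alone held 301 UMIs of Spp1. The limit cuts a range of levels into parts and does not define cell types.

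**Figure D4:**
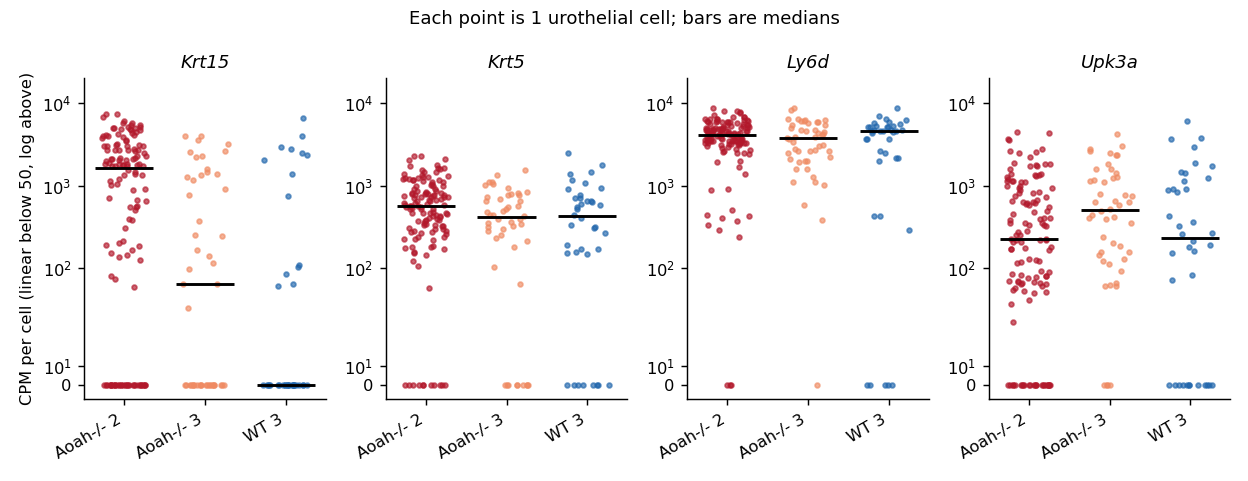
Level per cell in CPM (vertical axis, linear below 50 and log above) of Krt15, Krt5, Ly6d and Upk3a, with 1 point per urothelial cell and a bar at the median of each library. For Krt15, cells without a UMI (32, 22 and 24) stand beside cells up to 7438, 4054 and 6625 CPM, while Ly6d is above 1000 CPM in most cells of every library.

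The share of urothelial cells differed more between the 2 Aoah-/- mice than between genotypes. It was 0.842% (130 of 15441 kept cells, Clopper-Pearson 95% interval 0.704 to 0.999), 0.244% (48 of 19692, 0.180 to 0.323) and 0.286% (38 of 13271, 0.203 to 0.393). The mean of the Aoah-/- mice was 0.543% with an SD of 0.423, so the difference from the WT mouse of 0.256 percentage points was less than that SD, and the value of Aoah-/- mouse 3 was under that of WT. Per 1000 principal cells there were 361, 105 and 100 urothelial cells. Counting Wt1 and Msln alone in the mesothelial limit gave 1.46%, 0.361% and 0.588%, again with Aoah-/- mouse 3 lowest. With 1 WT mouse, no test between genotypes was made for any quantity here.

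Between genotypes, few urothelial genes stood apart by 2-fold or more in both Aoah-/- mice. Several of the largest differences of the lower genes, among them those of Clu, Lif and Cxcl2, came from 1 WT barcode. Of 2954 genes with at least 50 CPM in a library, 19 (0.643%) were higher in both Aoah-/- mice than in the WT mouse by 2-fold or more and 53 (1.79%) were lower. In remaining cells the same rule gave 4 (0.134%) and 21 (0.703%) of 2989 genes, 2 and 4 of them among those of urothelial cells. The median log2 ratio over the genes tested was -0.02, and the 2 Aoah-/- mice differed from each other by 2-fold or more in 30 genes (1.02%).

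Some genes higher in the Aoah-/- mice had UMIs in many cells. Tnfaip2, a TNF-induced protein, stood at 212 and 157 CPM against 43.6 CPM in the WT mouse, a log2 ratio of the mean levels of 1.86, with an SD of 0.29 between the Aoah-/- mice. Adh7, an alcohol dehydrogenase of stratified epithelia, stood at 209 and 104 CPM against 33.9 CPM. In addition, and chosen after their values were seen for their higher abundance, the flavin monooxygenase Fmo5 stood at 946 and 553 CPM against 237 CPM, the iron carrier Trf at 654 and 516 CPM against 227 CPM, and the NADP-dependent Idh1 at 362 and 297 CPM against 135 CPM. For each of these 5 genes both Aoah-/- levels lay above the WT level, which the choice of genes fixes. Tnfaip2 was also higher in the remaining cells of the Aoah-/- mice, at 89.7 and 64.8 against 31.9 CPM. For Trf the levels there were 138 and 48.4 against 41.7 CPM. Fmo5, Trf and Idh1 each kept the call under 2 of the 4 definitions of the cells given below, and with the limit on Wt1 and Msln alone the log2 ratios of Fmo5 were 1.42 and 0.72 and those of Idh1 0.78 and 0.36. Adh7 lost its call there too, at 1.64 and 0.78.

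Several other higher genes rested on few cells or had their UMIs in 1 barcode. Sprr2f, a small proline-rich protein, had 226 and 83 UMIs against 2 in the WT mouse, ratios of 26.4 (95% counting interval 7.23 to 219) and 33.8 (9.05 to 283), but its UMIs came from 12, 5 and 1 cells. Ccl5, a chemokine of lymphocytes, and Atp6v1g3, a proton pump subunit of intercalated cells, drew 89.6% and 98.7% of their UMIs in Aoah-/- mouse 2 from 1 barcode. Klk1, the tissue kallikrein of distal tubule, was at 62.2 and 45.3 CPM against 2.42 CPM, while remaining cells held 633, 859.9 and 497 CPM of it. In Aoah-/- mouse 2, 41.8% of its UMIs came from 1 barcode, without the 2 barcodes it stayed under 50 CPM in every library, and with the limit on Wt1 and Msln alone its log2 ratios were 0.18 and 0.11. The predicted gene Gm8730 stood at 336, 249.9 and 50.8 CPM in urothelial and at 101, 84.6 and 14.1 CPM in remaining cells. Also among the 10 genes with the largest ratios were Ddx46, an RNA helicase, at 88.2 and 80.7 against 19.4 CPM, and the unnamed transcript 9530034E10Rik, at 107 and 72.8 against 19.4 CPM. Their UMIs came from 88, 21 and 8 cells and from 72, 22 and 6 cells. With the limit on Wt1 and Msln alone Ddx46 stood at 77.5 and 67.4 against 55.1 CPM and lost its call. Marker sums of other cell types also differed between genotypes in the urothelial cells, in both directions. Among those higher in both Aoah-/- mice were thick ascending limb genes, at 186 and 124 against 38.7 CPM, intercalated cell genes, at 96.1 and 104 against 7.26 CPM, and leukocyte genes, at 123 and 134 against 26.6 CPM. Among those lower in both were fibroblast and smooth muscle genes, at 0.566 and 9.84 against 33.9 CPM, and erythroid genes, given above. Proximal tubule genes, at 763 and 1088 against 798 CPM, had no common direction. Umod, the most abundant thick ascending limb gene, was among the 19 higher genes, at 114 and 61.0 against 21.8 CPM, with 60.7% of its UMIs in Aoah-/- mouse 2 from 1 barcode. The part of these cell types in the higher genes was not tested.

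Genes lower in the Aoah-/- mice were led by Clu, Lif, Gadd45g, Edn1, Pth1r, Cxcl2, Sox9, Spp1, Cited2 and Arl4c. Clu, which encodes the secreted chaperone clusterin, stood at 78.6 and 110.2 CPM against 1638 CPM in the WT mouse, but 95.4% of its WT UMIs came from the single barcode without the 5 unused urothelial genes. That barcode also gave all WT UMIs of the cytokine Lif and the chemokine Cxcl2, 96.2% of those of the parathyroid hormone receptor Pth1r and 87.5% of those of the vasoconstrictor Edn1. Without it and its counterpart in Aoah-/- mouse 2, Clu stood at 61.1 and 110.2 against 81.7 CPM and Cxcl2 at 18.3 and 27.5 against 0 CPM. In total 18 genes were then higher (0.612% of 2942) and 36 lower (1.22%), of which 16 and 32 had been called with all cells.

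A second group of lower genes was spread over many WT cells. Nfkbia, the inhibitor of NF-kB, stood at 335 CPM (309 to 363) and 268 CPM (225 to 317) against 839.6 CPM (754 to 933), with UMIs in 33 of the 38 WT cells, and 16.1% of the WT UMIs in the cell with most. Plaur, the urokinase receptor, stood at 101 and 64.9 against 331 CPM, and Gadd45b, a stress-induced regulator, at 80.9 and 128 against 402 CPM. For Nfkbia and Gadd45b the WT cell with most was again the barcode of 34058 UMIs, with 24.7% of the WT UMIs of Gadd45b. Without the 2 barcodes the WT levels of Nfkbia, Plaur and Gadd45b were 767, 345 and 330 CPM, and each gene kept its call. Cldn4, one of the junction genes above, stood at 313 and 303 against 699 CPM, with a log2 ratio of the mean levels of -1.16 and an SD of 0.03, and with the limit on Wt1 and Msln alone its log2 ratios were -0.94 and -0.85, short of the call. The 2 Aoah-/- mice were close together for Cldn4 and Nfkbia and wider apart for Plaur. In remaining cells Plaur, Gadd45b and Nfkbia were lowest in the WT mouse, the opposite order, at 49.3, 34.6 and 25.6 CPM, at 196, 232 and 139 CPM, and at 471, 394 and 298 CPM. Principal cells alone were highest in the WT mouse for Gadd45b, at 347, 395 and 418 CPM, and for Nfkbia, at 328, 292 and 410 CPM. Plaur stood there at 19.0, 12.7 and 18.8 CPM.

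The calls depended on which barcodes counted as urothelial. With the 374 barcodes of the limit on Wt1 and Msln alone, 5 genes were higher (0.180% of 2783) and 17 lower (0.611%), and with members of at least 3 rule genes (123 cells) 63 were higher (2.12% of 2966) and 42 lower (1.42%). Under all 4 definitions (these, the rule, and the rule without both barcodes), 5 genes were higher, among them Sprr2f, Tnfaip2, Gm8730 and 9530034E10Rik. The 7 lower under all 4 were Nfkbia, Plaur, Gadd45b, Gadd45g, Cited2, Mfge8 and Pim1. These definitions share most of their cells and the same 3 mice, so they are not independent.

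**Figure D5:**
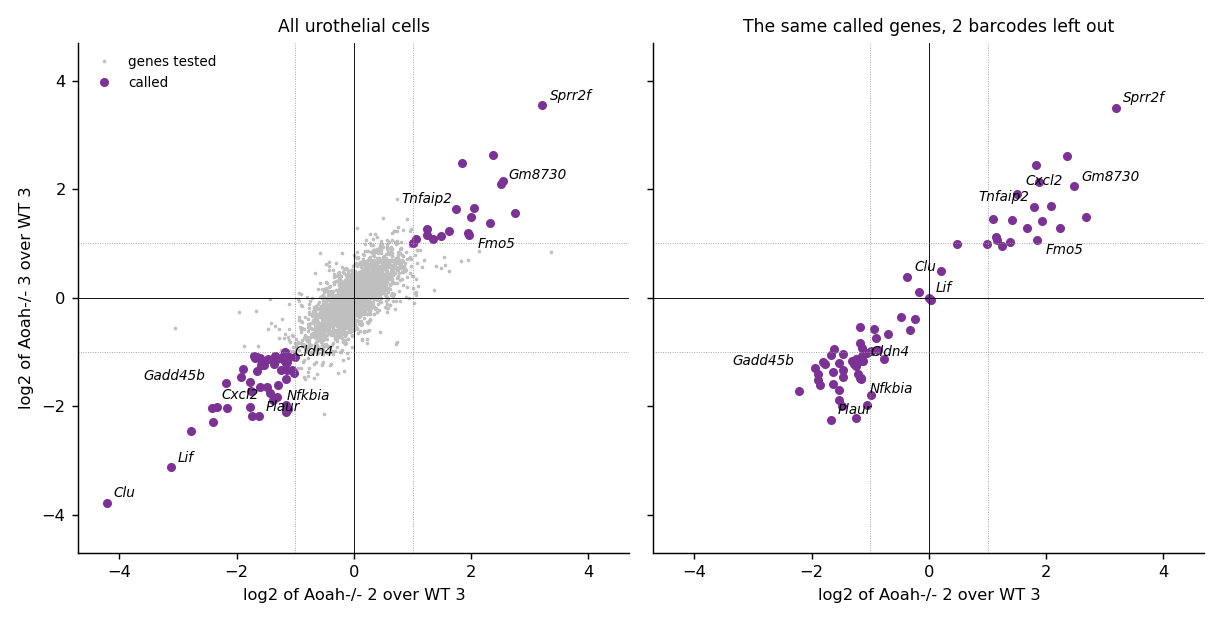
Log2 ratio (CPM plus 10) of Aoah-/- mouse 2 over the WT mouse (horizontal) against that of Aoah-/- mouse 3 over the same WT mouse (vertical), for 2954 genes in urothelial cells (left) and for the called genes again without 2 barcodes (right). Dotted lines mark 2-fold. Clu, Lif and Cxcl2 lie at the lower left with all cells and leave it on the right, while Plaur, Nfkbia and Tnfaip2 stay past 2-fold. Both axes share the WT library.

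Some short lists had a larger share of their tested genes called than injury and arrest. Among these, 2 of 3 chemokine and cytokine genes (median log2 ratio -1.52) and 2 of 2 erythroid genes were lower. All WT UMIs of the chemokine Cxcl2 came from 1 barcode. By count, injury and arrest had the most genes called of any list. Of 10 tested, none was higher and 4 were lower in both Aoah-/- mice (Clu, Spp1, Sox9 and Plaur), against 1.79% lower over all genes tested, with a median log2 ratio of -1.03 against -0.02 over all genes tested. Their sum was 3194 and 3042 CPM against 6976 CPM, while in remaining cells it was 4029 and 4746 against 3099 CPM. In principal cells alone it was 10028.5 and 9349.3 against 10851.3 CPM. Clu lost its call without the 2 barcodes, and Clu, Spp1 and Sox9 lost theirs with at least 3 rule genes, which left Plaur alone. The WT level of Spp1 stood at 11572 CPM in the 5 WT cells without Ly6d, and in cells with Ly6d it was 469 and 475 against 449.5 CPM. Without the 2 barcodes the log2 ratio of the sum went from -1.16 to -0.60, and with at least 3 rule genes it was -0.10. The basal list had no gene called of 10 and a sum of 3702 and 2294 against 1984 CPM, with Krt15 its most abundant gene. The superficial list had none called of 10 and sums of 3046, 3095 and 3203 CPM. Of 9 keratins and 17 immediate early and heat shock genes none was called, and the latter summed to 14823, 18733 and 19277 CPM. Krt18 and Krt8, partner keratins of simple epithelia, were lower in both Aoah-/- mice without reaching 2-fold in both, at 1122 and 1133 against 2069 CPM and at 806 and 905 against 1624 CPM. Among 4 interferon-induced genes tested, Ifitm3 and Irf1 were lower, at 218 and 242 against 513 CPM and at 33.9 and 43.3 against 102 CPM. For Irf1, 64.3% of the WT UMIs came from 1 barcode, and without the 2 barcodes its levels were 34.2 and 43.3 against 39.6 CPM, so that the call was lost. Ifitm3 was called under 2 of the 4 definitions, with log2 ratios of -1.03 and -0.90 with the limit on Wt1 and Msln alone and of -0.77 and -0.92 with at least 3 rule genes. In the erythroid list Hba-a2 and Hbb-bs were lower, and they were lower in remaining cells too, with Hbb-bs at 1274 and 1726 against 3883 CPM.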

How the data were processed

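The authors deposited, for 3 libraries, matrices of UMI counts (27998 genes, called barcodes) without normalization. Notes of the submitters name Cell Ranger 3.1.0 and mm10, and the file headers name cellranger 6.1.2. The lowest UMI total was 500, 1672 and 500, so all libraries were held to 1672 UMIs. Counts were summed per library over urothelial and over remaining cells and scaled to CPM with exact Poisson intervals, and shares were given Clopper-Pearson intervals (95%; Python 3.11.15, numpy 2.4.6, scipy 1.17.1, pandas 2.3.3). Ratios used CPM + 10 for genes with at least 50 CPM. Cells are not replicates, and with 1 WT mouse no test was made. The steps were tested on simulated data. Doublets were kept, and no caller was run.

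Genes were named from the rule, from 31 lists of 381 genes, as the 25 leading genes, as the 10 largest differences in each direction and as the 10 most abundant genes. The members and lists were chosen with earlier results of these data known. Some genes that met these rules are not reported here. Gene lists not described in the text are given with the other observations. The alternatives were other limits on UMIs, mitochondrial share, rule genes, tubule and mesothelial genes, other added CPM and filters, per-cell means, other thinning and leaving out each Aoah-/- mouse.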

Additional observations from a re-analysis of the deposited data

Results flagged for a closer look

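With both Aoah-/- mice set against the WT mouse, 29 of the 53 genes called lower and 1 of the 19 called higher in urothelial cells went the opposite way in the remaining cells of both mice. Over all 2954 genes tested, 529 of the 1249 that were lower by any amount in the urothelial cells of both mice did so (42.4%), and 314 of the 1053 that were higher (29.8%). These differences between cell groups were not tested. Values are the log2 ratio of the mean Aoah-/- level over WT, first in urothelial and then in remaining cells, for the genes named in the text. Lif, an interleukin-6 family cytokine, had -3.13 and 0.38 and the chemokine Cxcl2 -2.21 and 1.34, and all WT urothelial UMIs of both came from 1 barcode. The stress-induced regulator Gadd45g had -2.61 and 0.35, the transcription factor Sox9 -2.17 and 0.57, the secreted phosphoprotein Spp1 -1.89 and 0.68, and the small GTPase Arl4c -1.74 and 0.36. The WT barcode of 34058 UMIs gave 48.0%, 38.5%, 37.7% and 38.7% of the WT UMIs of these 4 genes. It also gave 64.3% of those of the interferon-regulated factor Irf1, which had -1.20 and 0.58. With at least 3 rule genes the urothelial ratio was 1.75 for Spp1, -0.05 for Sox9, -1.67 for Gadd45g and -1.51 for Arl4c. Plaur had -1.88 and 0.55, Gadd45b -1.85 and 0.59, Mfge8 -1.66 and 0.57, Nfkbia -1.45 and 0.52, Pim1 -1.23 and 0.60, Cldn4 -1.16 and 0.24, and Ifitm3 -1.12 and 0.28. Krt8 had -0.92 and 0.22 and Krt18 -0.87 and 0.30. Principal cells, a part of the remaining cells, did not all follow them. Among the called genes named here, Sox9, Spp1, Arl4c, Irf1, Gadd45b, Mfge8, Nfkbia, Pim1 and Cldn4 were highest in the WT mouse there. Cxcl2 and Ifitm3 were lowest in the WT mouse, and Lif, Gadd45g and Plaur had no common direction.

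Summed lists did the same. The list for LPS recognition, with Nfkbia its most abundant gene, had -1.17 and 0.64, injury and arrest -1.16 and 0.50, interferon-induced genes -0.91 and 0.47, and antimicrobial and secreted genes -0.58 and 0.56. MHC class I had -0.46 and 0.58, junctions -0.44 and 0.34, chemokines -0.40 and 0.56, cell cycle -0.36 and 0.13, keratins -0.29 and 0.42, podocyte genes -0.22 and 0.29, and immediate early genes -0.20 and 0.11. Of the WT chemokine sum of 733 CPM, 143 CPM was Cxcl2, all from 1 barcode. Near 0 in urothelial cells were growth factors (-0.13 and 0.20), transcription factors (-0.071 and 0.35), surface genes (-0.063 and 0.51), superficial genes (-0.061 and 0.64) and matrix genes (0.014 and -0.16). In principal cells, sums for LPS recognition, injury and arrest, antimicrobial, junction, podocyte and immediate early genes were highest in the WT mouse. Growth factor, superficial and matrix sums were highest there in the WT mouse too. MHC class I and chemokine sums were lowest in it. Interferon-induced, cell cycle, keratin, transcription factor and surface sums had no common direction.

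Barcodes under the UMI minimum were not used above. In Aoah-/- mouse 2, 3 of 5927 such barcodes (0.0506%) met the rest of the rule, against 0 of 4931 in the WT mouse, and Aoah-/- mouse 3 had no barcode under the minimum.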

How the results depend on the processing

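With 1 WT mouse and 38 WT urothelial cells, single barcodes can set a value, and no setting adds mice. The 25 leading genes each kept their call in 250 checks of a gene under an alternative that could end it. They were chosen for the largest ratios, far above the 4-fold limit, and the alternatives reuse many of the same cells. These checks therefore say little about robustness. In the genotype comparison, of 220 such checks of the named genes, 185 kept the call, 21 lost it and 14 changed sign. Adding 1 CPM, leaving out an Aoah-/- mouse and, for leading genes, no CPM filter cannot end a call and are not counted. No paired analysis was possible because the genotypes share 1 replicate number. Values below are counts of higher or lower genes in Aoah-/- mice, log2 ratios of list sums, and Krt5 or Krt20 differences in percentage points after thinning (4.73 and 1.43 as reported). The cause of these changes was not tested.

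At 3000 UMIs or more the Krt20 difference was 10.6. With at most 20% mitochondrial UMIs it was 9.51, and the superficial ratio -0.028. With at least 3 rule genes 63 genes were higher, the superficial ratio was -0.15, injury -0.10 and Krt20 8.56. With no tubule UMI, 66 genes were higher, superficial was 0.24, injury -1.35 and Krt20 7.85. Without the tubule limit, 76 genes were lower against remaining cells, 30 were lower in Aoah-/- mice, injury was -0.67, Krt5 -0.972 and Krt20 -3.80. With no mesothelial UMI, 30 genes were higher, superficial was 0.34, injury -1.57 and Krt20 -0.224. Without the 10% of cells with most UMIs, superficial was -0.10, injury -0.63 and Krt20 7.45. Adding 1 CPM gave 205 leading genes and 33 higher in Aoah-/- mice. No CPM filter gave 65 higher and 101 lower, and a filter of 200 CPM gave 6 and 14. Means of per-cell CPM gave 30 higher, superficial 0.049 and injury -0.83.

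The remaining definitions were added after the data were seen. Without the 2 barcodes lacking all 5 unused genes, superficial was -0.13, injury -0.60 and Krt5 -0.638. With the limit on Wt1 and Msln alone, 5 were higher and 17 lower, superficial was -0.029, injury -0.61 and Krt5 -3.67. Leaving out either Aoah-/- mouse gave shares from -0.0426 (without mouse 2) to 0.556 percentage points, 45 higher genes, 82 to 87 lower, Krt5 from -2.08 (without mouse 2) to 11.5 and Krt20 from -1.74 (without mouse 3) to 4.61.

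The sign changes of named genes are given as 1 of the 2 Aoah-/- log2 ratios, the higher for genes called lower and the lower for Atp6v1g3, called higher. With at least 3 rule genes they were Clu 0.12, Edn1 0.76, Pth1r 0.46, Cxcl2 1.57, Sox9 0.14 and Spp1 1.99. Without the 10% of cells with most UMIs they were Atp6v1g3 -0.60, Clu 0.43, Pth1r 0.62 and Cxcl2 2.11, and with per-cell means Cxcl2 0.38. Without the 2 barcodes they were Clu 0.39, Pth1r 0.50 and Cxcl2 1.91.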

Other observations

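Several lists not described above were also summed over the urothelial cells. Over all genes tested 3.51% were higher and 8.94% lower than in remaining cells, against which each count here is to be read. Of 13 antioxidant and metallothionein genes tested, the glutathione transferases Gsta4 and Gstm1 were 4-fold or more higher than in remaining cells in all 3 libraries and the secreted peroxidase Gpx3 lower, with list sums of 17100, 19018 and 17261 CPM. Of 11 matrix and integrin genes, Lamb3 and Itgb4, of the anchoring structures of basal cells, were higher and Timp3, an inhibitor of matrix proteases, lower. Of 8 chemokine and cytokine genes none was higher, and Cxcl1 and Il1b were lower. Of 8 interferon-induced genes Ifi27l2a was lower. Among other cell types, 5 of 6 thick ascending limb genes and 1 of 4 distal convoluted tubule genes (Fxyd2) were lower, while of 5 principal cell genes Aqp3 was higher and Aqp2, which the rule limits, lower. None of 6 endothelial, 3 fibroblast and smooth muscle, 1 podocyte and 1 intercalated genes tested passed, and Dcn was the most abundant fibroblast gene.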
